A study of Mus musculus with 116 samples.

Results

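Putting Ku70 back into mouse pro-B cells that lack both Ku70 and DNA ligase IV was examined at a Cas9 break in c-Myc, in 12 of the series' 116 samples. These 12 libraries were chosen by their genotype and clone labels and form 4 groups of 3: Lig4-/-Ku70-/- clone A1_1 and Lig4-/-Ku70-/- clone C1, each without and with Ku70 added back (+Ku70). All were v-Abl-transformed pro-B cells carrying an Emu-Bcl2 transgene, arrested in G1 with the Abl kinase inhibitor STI-571 (3 µM, 96 h) and nucleofected with Cas9 and a c-Myc guide RNA. Each clone was treated as a lineage (A and C), so a lineage effect is also the effect of 1 clone, and the labels give neither the promoter nor the level of the added Ku70. Another 6 libraries of Lig4-/- cells that carry their own Ku70 (clones A1 and C, 3 each, same transgene, arrest and nuclease) served to compare the joins that remained. A further 3 libraries of WT clone A (same transgene, arrest and nuclease) set the break position and were a reference for some joins to other chromosomes. The WT libraries were normalised to 396387 raw reads and came from other sequencing runs. The lists held 158089 junctions in the Lig4-/-Ku70-/- libraries, 7203 in the +Ku70 libraries and 1252 in the Lig4-/- libraries. The lists hold no expression values, so the presence of Ku70 in each clone is known here from its label.

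Ku70 is a subunit of the ring-shaped Ku heterodimer, which loads onto broken DNA ends, protects them from resection and recruits the classical end-joining machinery. Ligase IV is the enzyme that seals the ends in that pathway. Cells without it can still join ends by alternative end joining, whose junctions often carry microhomology, a few bases that both ends share.

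A junction is a sequenced read that runs from the c-Myc primer side (the bait) into the sequence joined to it (the prey). The break lay inside Myc (chromosome 15, 61985341 to 61990361 in RefSeq's GRCm38.p6 annotation; exon structure was not used here), with the last bait base at 61987303 and the first prey base at 61987304 in mm10, the build named in the submitters' processing notes. These positions are the commonest ends of the WT clone A libraries. The sequence around the break and the joins that recurred in both genotypes are shown because the comparison turns on them. The break site is the plus strand of chr15:61987264-61987353, as the consensus of WT clone A reads, with at least 99.0% of reads agreeing at every base and no position differing in either Lig4-/-Ku70-/- clone. The break falls after base 40 of it, and the capitals mark the NGG that a Cas9 guide needs, found 3 bases beyond the break. In the joins, 15 bases of bait and 15 of prey flank capitals that mark the microhomology, and each is named by the reference bases it lacks.
Break site: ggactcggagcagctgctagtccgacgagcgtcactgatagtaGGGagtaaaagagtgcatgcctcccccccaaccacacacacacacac
Lacking 3 bp: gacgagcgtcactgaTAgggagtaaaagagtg
Lacking 46 bp: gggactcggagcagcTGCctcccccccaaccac
Lacking 25 bp: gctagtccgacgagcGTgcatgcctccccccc
Lacking 42 bp: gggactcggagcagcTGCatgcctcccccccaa
Lacking 5 bp: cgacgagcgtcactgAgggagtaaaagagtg
Lacking 27 bp: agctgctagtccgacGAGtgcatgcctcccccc

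Some libraries stood apart before any comparison. The bases read ahead of the primer differ between libraries, and 11 of the 12 libraries carried 1 such start in 98.4% to 100% of their junctions. The +Ku70 A1_1 replicate 3 library carried it in 248 of 278 (89.2%), with a second start in 23 junctions. Among the Lig4-/- libraries, A1 replicate 2 was a mixture: its commonest start held 63 of 411 junctions (15.3%), the next 61, and 11 starts held 10 or more. Lig4-/- A1 replicate 3 carried 1 start in 85.4% of junctions and Lig4-/- C replicate 1 in 75.4%. None of these odd reads had the exact start of another analysed library of its run, and no read name was shared by replicates of a group. Their part in the results was not tested beyond the values without them given here. In lineage A the sequencing run was shared by all 3 genotypes for replicates 1 and 2, and another run by all 3 genotypes for replicate 3; in lineage C all 6 libraries of the add-back comparison shared 1 run. The labels do not say that replicates were separate cultures, so p-values measure only the spread between these libraries.

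Junctions were far fewer with Ku70 added back, in both lineages. In lineage A the Lig4-/-Ku70-/- libraries held 9082, 6412 and 13431 junctions, and the +Ku70 libraries 106, 128 and 278. In lineage C they held 42340, 44798 and 42026 without Ku70 and 2204, 3167 and 1320 with it. All 6 add-back libraries lay far below all 6 libraries without it in their own lineage. The submitters normalised both genotypes of a lineage to the same number of raw reads (201858 in A, 273198 in C). Per 100000 raw reads this gave 4776 ± 1755 against 84.5 ± 46.4 (SD, n = 3 each) in A, and 15760 ± 556 against 816 ± 338 in C. On the log2 scale, with 0.5 added to each count, the change averaged -5.12 over the lineages (exact permutation within lineage, two-sided, p = 0.005, the smallest the 400 relabellings allow; 0.0127 after Benjamini-Hochberg adjustment over 28 comparisons). The level left was 1.7% of that without Ku70 in A and 4.87% in C. Within lineage A the change was -6.03 in the run of replicates 1 and 2 and -5.59 in the run of replicate 3. These values count reads, with 3.08 to 5.46 reads per distinct junction without Ku70 and 1.12 to 2.3 with it. Distinct junctions fell less in proportion, in libraries of unequal depth. They numbered 2087, 1687 and 4363 against 66, 84 and 248 in A. In C there were 8278, 8211 and 8314 against 1165, 1374 and 764.

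Junctions were divided into 8 classes by where the prey lay. The most numerous was the short prey deletion, a join in the orientation of simple rejoining that lacks 1 to 100 bp of the prey end. Lineage A held 7634, 5236 and 9658 of these without Ku70 and 68, 75 and 134 with it; lineage C held 32695, 34971 and 32468 against 1622, 2522 and 939. The class fell to 1.22% of its level in A and 4.7% in C. Long prey deletions (over 100 bp and up to 100 kb) fell in parallel, from 654, 492 and 1702 to 6, 20 and 19 in A and from 5530, 6046 and 5571 to 280, 355 and 194 in C. Joins with no prey loss, which keep the prey end exactly at the break, fell from 230, 246 and 147 to 1, 5 and 3 in A and from 845, 753 and 750 to 36, 45 and 21 in C. Each of these 3 rejoining classes changed with p = 0.005 (exact permutation; adjusted p = 0.0127), without overlap in either lineage. None of the lists holds a junction with neither lost nor inserted bases, so exact rejoining is not part of these numbers.

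**Figure D1:**
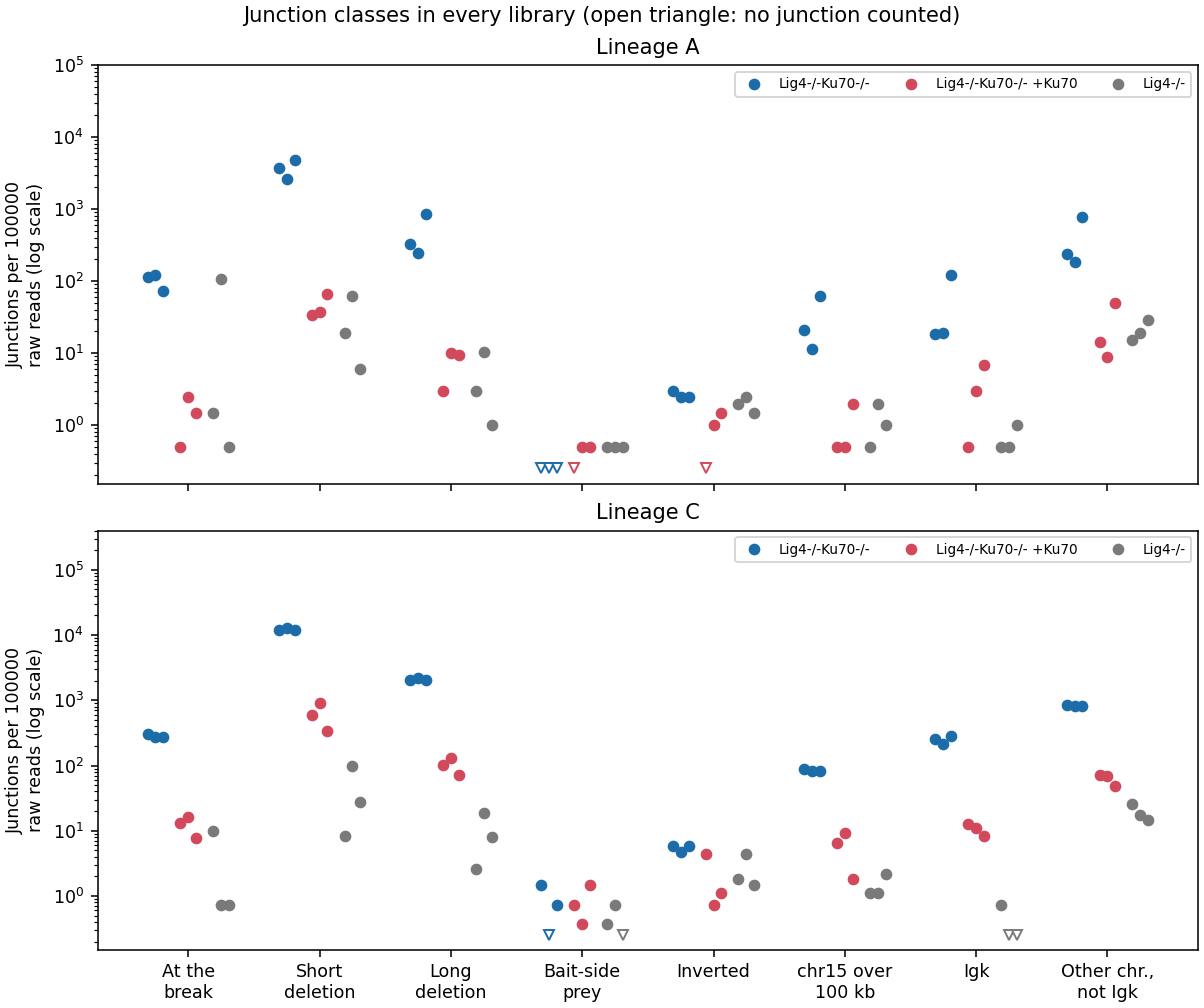
Junctions per 100000 raw reads (log axis) in each library of 3 genotypes, by class and lineage; 1 point is 1 library. The rejoining classes with +Ku70 lie 1 to 2 orders of magnitude below Lig4-/-Ku70-/-, whereas bait-side and inverted joins are few in every genotype.

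Translocations and distant joins also fell. Other chromosomes outside Igk gave 479, 371 and 1553 junctions without Ku70 in A and 29, 18 and 100 with it, and 2307, 2200 and 2211 against 199, 187 and 131 in C, leaving 5.83% and 7.59%. The Igk light-chain locus on chromosome 6, which the RAG recombinase cuts in arrested pro-B cells, gave 37, 39 and 242 against 1, 6 and 14 in A and 701, 592 and 783 against 35, 30 and 23 in C, leaving 7.33% and 4.28%. Joins on chromosome 15 beyond 100 kb fell from 42, 23 and 124 to 1, 1 and 4 in A and from 242, 223 and 225 to 18, 25 and 5 in C. All 3 classes had an exact permutation p = 0.005 (adjusted p = 0.0127), and in each lineage every add-back library lay below every control.

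Joins in which the prey lay in the other orientation near the break, or on the bait side of it, were few with and without Ku70. Inverted joins within 100 kb numbered 6, 5 and 5 without Ku70 and 0, 2 and 3 with it in A, and 16, 13 and 16 against 12, 2 and 3 in C. They were lower in both lineages (log2 change -1.76, exact permutation p = 0.005, adjusted p = 0.0127), but 28.1% and 31% of them were left. Reads with the library's own start alone gave -1.41 with an exact permutation p = 0.055. The ratio of inverted joins to short deletions, a measure added after the values were seen, rose by 4.53 log2 units in A and 2.72 in C (exact permutation p = 0.005, adjusted p = 0.00875 over 21 added comparisons). Bait-side joins numbered 0, 0 and 0 against 0, 1 and 1 in A and 4, 0 and 2 against 2, 1 and 4 in C, and no change was detectable at these counts (exact permutation p = 0.3). Lig4-/- cells held 1 of these in each A1 library and 1, 2 and 0 in C.

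**Figure D2:**
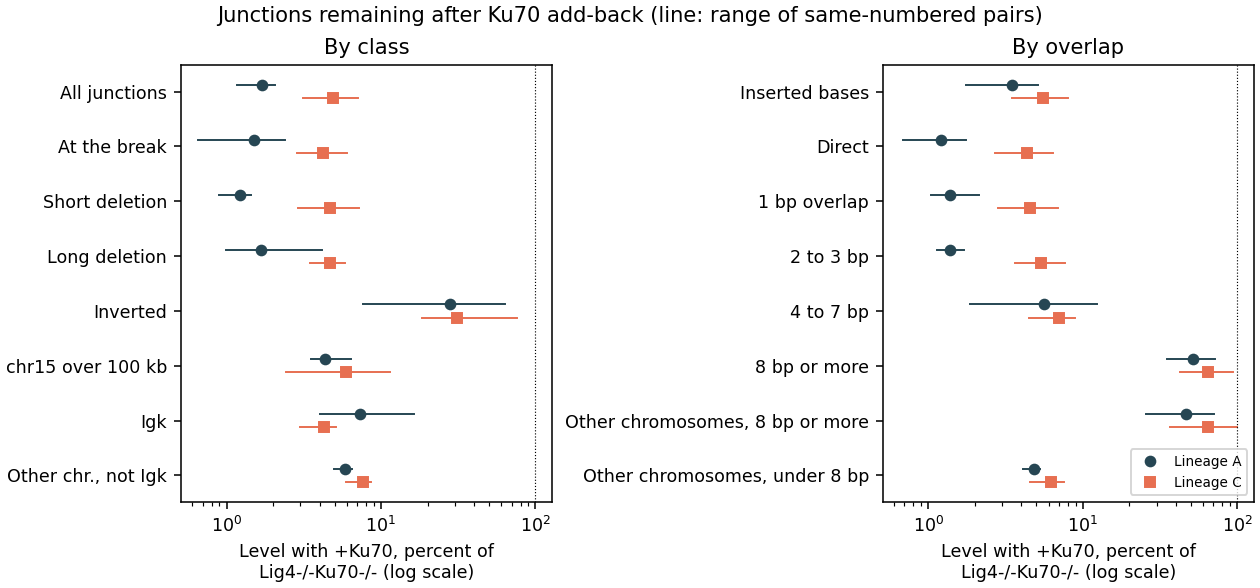
Level of each junction class (left) and overlap class (right) with +Ku70 as a percent of Lig4-/-Ku70-/- (log axis); points are lineage means of log2 values, lines the range of same-numbered pairs, and the dotted line marks no change. Rejoining classes lie near 1% to 5%, inverted joins near 30%, and joins with 8 bp or more of overlap near 50% to 65%.

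The overlap of bait and prey on the read gives the structure of each join. Without Ku70, direct joins (no overlap, no insertion) made up 30.4% ± 1.43 of junctions in A and 35.1% ± 0.473 in C (SD, n = 3). With +Ku70 they made up 17.9%, 22.7% and 24.1% in A, below all 3 control libraries, and 31.9%, 32.3% and 29.6% in C, also below all 3. The share fell by 6.35 points on average (exact permutation p = 0.005, adjusted p = 0.0127). Joins with 1 bp of overlap made up 28.9% ± 0.19 and 28.1% ± 0.24 without Ku70 and 24.2% ± 7.05 and 26.3% ± 1.3 with it, a difference the test did not separate (exact permutation p = 0.08).

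Counted per 100000 raw reads, every overlap class below 8 bp fell. Direct joins were left at 1.21% of their level in A and 4.34% in C, joins with 1 bp of overlap at 1.39% and 4.56%, and those with 2 or 3 bp at 1.37% and 5.35%. Joins with 4 to 7 bp were left at 5.6% and 7%, and joins with insertions at 3.48% and 5.52%. Each of these 5 changes, added after the values were seen, had an exact permutation p = 0.005 (adjusted p = 0.00875).

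Microhomology of at least 4 bp became a larger share. It rose from 1.7%, 2.09% and 3.72% to 12.3%, 15.6% and 20.5% in A, and from 2.41%, 2.7% and 2.9% to 5.08%, 3.66% and 5.61% in C, without overlap (mean rise 7.87 points, exact permutation p = 0.005, adjusted p = 0.0127). Microhomology of at least 2 bp was 34.2%, 34.2% and 38.1% without and 49.1%, 33.6% and 48.6% with Ku70 in A, where the groups overlapped. In C it was 31.6%, 32.0% and 32.4% against 35.8%, 35.3% and 39.8%. The mean difference of 6.62 points gave an exact permutation p = 0.05 and an adjusted p = 0.0875, so it did not pass. On the chromosome of the break alone, the differences were 2.39 points for at least 2 bp (exact permutation p = 0.39) and 2.38 for at least 4 bp (p = 0.12). The number of junctions limits these shares in lineage A: the 95% Wilson interval of the replicate 1 value ran from 39.7% to 58.4% at 106 junctions, counting error only.

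Where the longer overlaps lay was therefore compared by class. Within short prey deletions the share with at least 2 bp was 33.6%, 33.8% and 36.8% without Ku70 and 42.6%, 14.7% and 37.3% with it in A. In C it was 29.9%, 29.7% and 30.3% against 32.2%, 33.0% and 36.3%. These differences did not pass (exact permutation p = 0.99 over both lineages). With each distinct junction counted once, the difference was 13.7 points and passed (exact permutation p = 0.005), but at equal depth it was 1.58 (p = 0.705). On other chromosomes the share went from 23.3%, 27.8% and 26.9% to 70%, 58.3% and 57.0% in A, and from 20.2%, 22.6% and 20.6% to 39.3%, 27.2% and 43.5% in C. There it rose by 25.7 points (exact permutation p = 0.005, adjusted p = 0.0127), without overlap in either lineage. Within long prey deletions it was 60.3% ± 0.377 and 52.9% ± 1.24 without Ku70. With +Ku70 it was 55.2% ± 33.7 and 57.7% ± 2.36 (exact permutation p = 1). The signs were again opposite, -5.09 points in A and 4.78 in C. The A add-back libraries held 6 to 20 such joins, and in C the groups did not overlap. Distinct junctions counted once gave 23.5 points (exact permutation p = 0.005), and 5.56 at equal depth (p = 0.225).

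Joins to other chromosomes with at least 8 bp of overlap were set apart after the values were seen. Lineage A held 18, 17 and 30 without Ku70 and 10, 4 and 21 with it, and lineage C held 22, 28 and 28 against 22, 10 and 20, so the groups overlapped in both lineages. Their log2 change was -0.87 (exact permutation p = 0.04, adjusted p = 0.0525, so it did not pass), leaving 46.9% in A and 64.2% in C. Interchromosomal joins with less overlap fell by 4.19 log2 units (exact permutation p = 0.005, adjusted p = 0.00875), leaving 4.84% and 6.23%. The long-overlap joins numbered 21, 20 and 26 in Lig4-/- A1, 42, 9 and 24 in Lig4-/- C, and 41, 37 and 43 in WT clone A, which has Ku70 and ligase IV. Per 100000 raw reads all of these libraries lay between 1.98 and 15.4. In the 6 groups without ligase IV these joins had a median overlap of 9 to 11 bp, and 5.97% to 11.4% of them ended within 10 bp of the break on the bait side, against 20.2% to 36.4% of the interchromosomal joins with less overlap. They made up 33.3%, 16.7% and 18.4% of interchromosomal junctions in the A add-back libraries and 1.67% to 4.15% in the A controls. In C they made up 9.4%, 4.61% and 13.0% with +Ku70 and 0.731% to 1.0% in the controls. The share of interchromosomal junctions with at least 2 bp was larger in each add-back library (70%, 58.3% and 57.0% in A, 39.3%, 27.2% and 43.5% in C). Without them the difference in the share of all junctions with at least 2 bp of microhomology was 4.48 points (exact permutation p = 0.06), against 6.62 with them. The rise of this share among interchromosomal joins alone was not recomputed without the long-overlap joins.

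Insertions, bases between bait and prey that neither alignment covers, made up 5.35%, 5.82% and 4.39% of junctions without Ku70 and 7.55%, 13.3% and 10.8% with it in A. In C they made up 5.04%, 4.28% and 5.04% against 5.81%, 4.86% and 5.53%, where the groups overlapped. The share rose by 5.35 points in A and 0.61 in C (exact permutation over both, p = 0.015, adjusted p = 0.03). With each distinct junction counted once the direction turned, to -5.77 points (exact permutation p = 0.03), and with distinct junctions counted at equal depth it was 4.15 (p = 0.005). Insertions of 10 bp or more made up 258 of 1449 in A and 764 of 6169 in C without Ku70, and 17 of 55 and 55 of 355 with it.

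**Figure D3:**
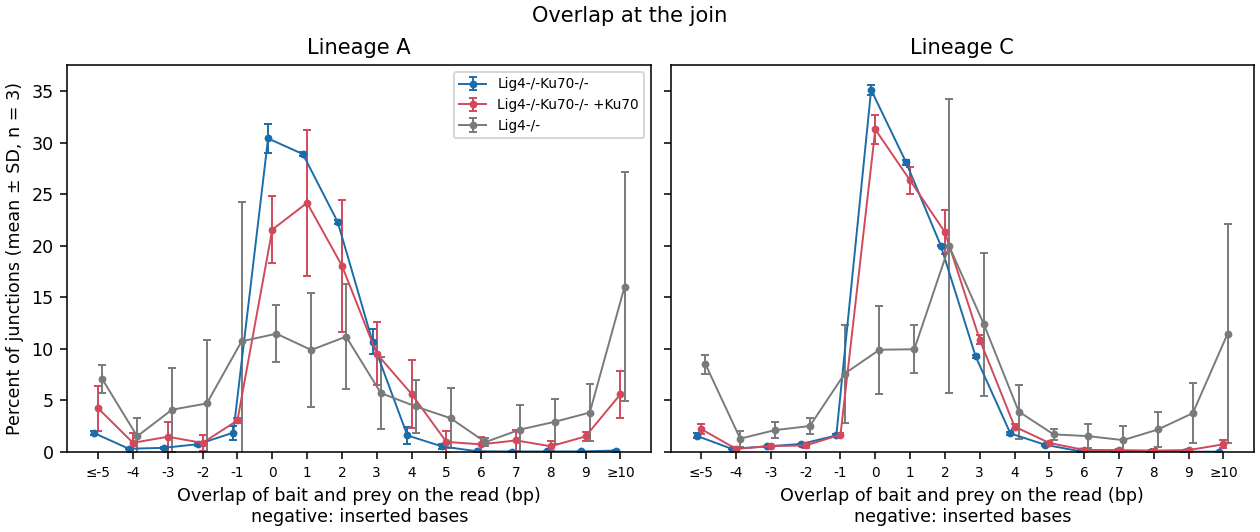
Percent of junctions by the overlap of bait and prey in bp (negative values are inserted bases), as the mean ± SD of 3 libraries for each genotype and lineage. Direct joins fall from 30.4% to 21.6% in A and from 35.1% to 31.3% in C with +Ku70, and Lig4-/- libraries hold 11.5% and 9.9%.

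Although their number fell, the joins that remained showed no detectable difference in the sequence lost. The median prey distance within 100 kb was 21, 21 and 26 bp without Ku70 and 20, 25 and 26.5 bp with it in A, and 25, 26 and 25 bp against 25, 25 and 26 bp in C (exact permutation p = 0.86). With each distinct junction counted once, the difference was -0.18 on the log10 scale of 1 plus the median (exact permutation p = 0.005), and -0.03 at equal depth (p = 0.24). The median bait loss was 21, 19 and 29 bp against 26, 22 and 29 bp in A, and 26, 29 and 28 bp against 28, 28 and 30 bp in C (exact permutation p = 0.295). Replicate 3 of lineage A, on its own run, had the longer losses in both genotypes. The bait loss is bounded by the primer, and the longest seen was 87 bp. In C the prey lay 51 to 100 bp away in 22.7% ± 1.2 of rejoining junctions without Ku70 and 20.8% ± 1.59 with it (SD, n = 3). Long prey deletions made up 7.2%, 7.67% and 12.7% of junctions without Ku70 and 5.66%, 15.6% and 6.83% with it in A, and 13.1%, 13.5% and 13.3% against 12.7%, 11.2% and 14.7% in C. The groups overlapped in both lineages, with a mean difference of -0.1 points (exact permutation p = 0.95). In none of the 12 libraries did a rejoining junction lack more than 10 kb of the prey side within the 100 kb window.

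**Figure D4:**
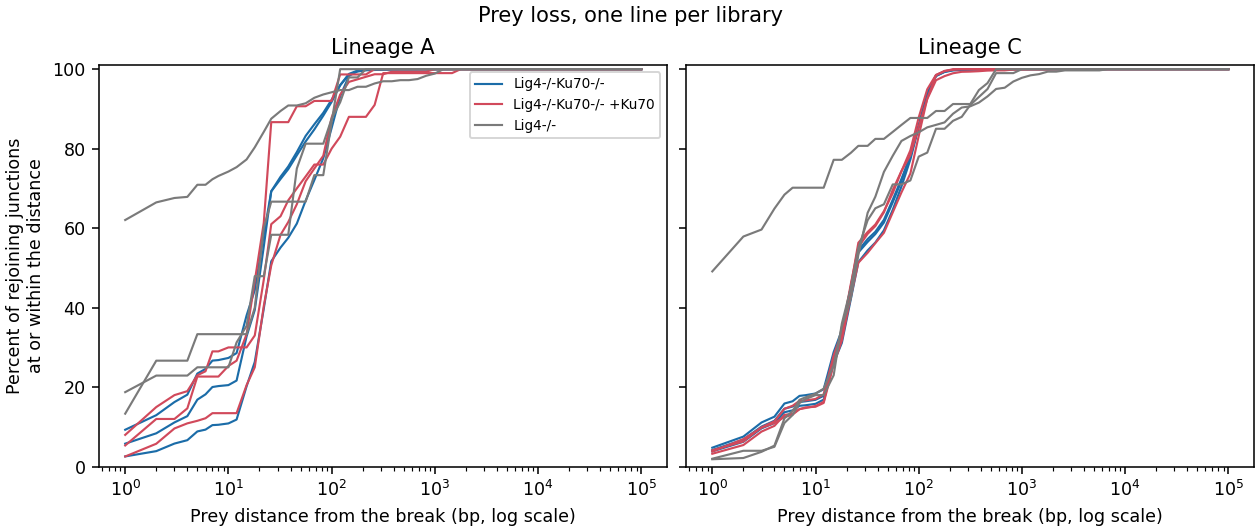
Cumulative percent of rejoining junctions by prey distance from the break (bp, log axis); each line is 1 library. In lineage C the +Ku70 lines run with the Lig4-/-Ku70-/- lines, and in A the +Ku70 lines scatter more widely. At 51 to 100 bp the A libraries held 1.33%, 8% and 19.9% with +Ku70, against 11.8%, 11.9% and 21.6% without Ku70. In each lineage 1 Lig4-/- library starts far above the rest.

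The same short joins recurred with and without Ku70. By the rule of the 5 junctions with the highest mean share per group, 9 distinct joins were named over the 4 groups, all on chromosome 15 in the rejoining orientation. The join lacking 3 bp (bait end 61987303, prey start 61987305) led both Lig4-/-Ku70-/- groups, with 2.58%, 4.44% and 0.97% of junctions in A and 2.09%, 1.68% and 1.85% in C. With +Ku70 it held 3, 3 and 1 junctions in A and 1.81%, 1.36% and 1.52% in C. The join lacking 46 bp (61987280 to 61987324), across a shared TGC, held 2.41% ± 0.3 and 1.54% ± 0.0681 without Ku70 and 2.14% ± 1.44 and 1.66% ± 0.451 with it. The join lacking 25 bp (61987295 to 61987319), across a shared GT, held 1.87% ± 0.188 and 1.48% ± 0.0658 without Ku70 and 1.11% ± 0.986 and 1.53% ± 0.234 with it. The joins lacking 42 bp (61987280 to 61987320), 5 bp (61987301 to 61987306) and 27 bp (61987292 to 61987317) each held 0.77% to 1.29% of junctions in C with or without Ku70, and 0.83% to 0.98% in A without it. In the A add-back libraries they numbered 1, 0 and 2, then 0, 4 and 3, then 0, 0 and 2, too few for a share. The other 3 joins were named through 1 add-back library of lineage A each. A join lacking 61 bp had 9 junctions with 5 prey lengths in replicate 1, a join lacking 52 bp had 8 with 4 prey lengths in replicate 1, and a join lacking 322 bp had 8 of a single prey length in replicate 2 and none in any other of the 12 libraries.

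The 20 joins most frequent without Ku70 held 20.8%, 22.5% and 13.7% of junctions in A and 14.6%, 14.5% and 15.1% in C. With +Ku70 the same joins held 19.8%, 10.9% and 9.35% in A and 13.6%, 15.1% and 13.8% in C; 19 of the 20 were seen in A and all 20 in C. In Lig4-/- they held 14.0%, 28.0% and 1.22% in A1, where 16 of the 20 were seen and the 28.0% is the mixed replicate 2, and 3.62%, 8.57% and 4.67% in C, where 11 were seen. Over the 20 joins, the rank correlation of mean shares with those without Ku70 was 0.33 for +Ku70 and 0.62 for Lig4-/- in A, and 0.81 and 0.56 in C, as a description over libraries of very unequal depth. The 0.62 includes the mixed replicate 2. Of the short-deletion junctions with +Ku70, 76% to 92.6% in A and 97.7% to 97.8% in C were joins also found in the Lig4-/-Ku70-/- libraries of the lineage. The corresponding values were 85.9% to 93.0% and 96.5% to 96.6% for each Lig4-/-Ku70-/- library against the other 2. For Lig4-/- they were 92.3%, 79.8% and 83.3% in A1, in the range of +Ku70, and 82.6%, 78.4% and 82.9% in C. Interchromosomal joins were nearly all distinct, and with +Ku70 0% to 2.3% of them were shared. Exact fragments (the same join with the same prey length) that matched the same-numbered Lig4-/-Ku70-/- library made up 18.9%, 9.38% and 10.1% of junctions in A and 30.1%, 31.8% and 27.8% in C. Matches with the other 2 libraries of the lineage made up 4.68% to 14.8% in A and 27.7% to 30.2% in C.

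**Figure D5:**
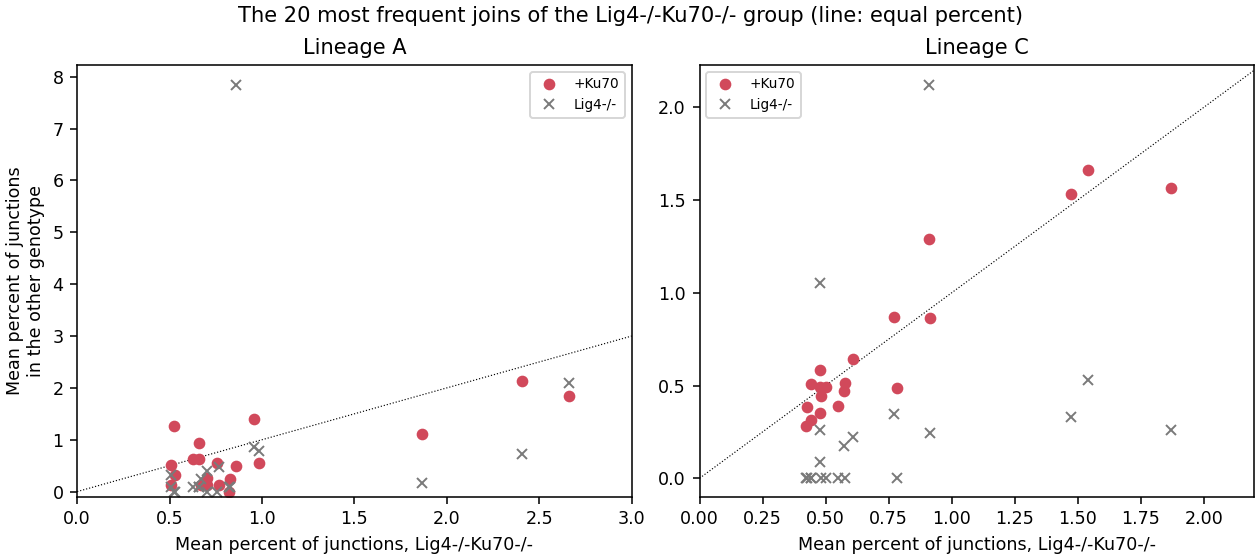
Mean percent of junctions (3 libraries) of the 20 most frequent Lig4-/-Ku70-/- joins, against their mean percent in +Ku70 (circles) and Lig4-/- (crosses), by lineage. In lineage C the +Ku70 points lie along the line of equal percent and most Lig4-/- points lie below it. The high cross in A is a join at the break with 1 inserted base. Of all joins at the break in Lig4-/- A1, the mixed replicate 2 held 216, and replicates 1 and 3 held 3 and 1.

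No difference in the variety of joins was detectable at equal depth. In 50 junctions drawn from a library, 45.9, 45.4 and 47.7 distinct joins are expected without Ku70 and 36.6, 40.7 and 48.8 with it in A, and 47.6, 47.8 and 47.6 against 47.8, 47.4 and 47.6 in C (exact permutation on the log2 scale, p = 0.325).

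Interchromosomal junctions, Igk included, made up a larger share of what remained. The share was 5.68%, 6.39% and 13.4% without Ku70 and 28.3%, 18.8% and 41.0% with it in A, without overlap, and 7.1%, 6.23% and 7.12% against 10.6%, 6.85% and 11.7% in C, where replicate 2 overlapped the controls. The rise was 20.9 points in A and 2.89 in C (exact permutation over both, p = 0.015, adjusted p = 0.03). With each distinct junction counted once the direction turned, to -3.4 points (exact permutation p = 0.595), and with distinct junctions counted at equal depth it was 17.1 (p = 0.005). Within Igk, the Jk part (the joining segments with 1000 bp on either side, chromosome 6, 70721562 to 70724923) gave 8, 15 and 42 junctions without Ku70 and 0, 0 and 3 with it in A, and 69, 83 and 92 against 1, 5 and 0 in C. The rest of Igk, which holds the variable segments, gave 29, 24 and 200 against 1, 6 and 11 in A and 632, 509 and 691 against 34, 25 and 23 in C. Both parts fell (exact permutation p = 0.005 each, adjusted p = 0.00875), and whether one fell more was not tested. On chromosomes other than that of the break, the 5 windows of 10 kb with the most distinct prey, lineages pooled, were all in Igk in both genotypes. With +Ku70 they rest on lineage C, since 4 of them held 0 junctions in A and the last 2 held 5 and 4 in C. Those common to both genotypes were 3: the one with the Igkj segments and Igkc, the one with Igkv6-32 and the one with Igkv8-30. The Igkv6-32 window (chromosome 6, 70070001 to 70080000) held 15 junctions in A and 259 in C without Ku70, and 0 and 14 with it. The Igkv8-30 window (70110001 to 70120000) held 11 and 184 against 0 and 10.

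The joins that remained were then set against those of Lig4-/- cells, which also have Ku70 but no ligase IV. The Lig4-/- A1 libraries used were the set normalised to the same 201858 raw reads as the add-back libraries of lineage A. Other G1-arrested Cas9 sets of Lig4-/- clone A1 in the series were not used. In lineage A the numbers overlapped, with 86, 411 and 82 junctions in Lig4-/- and 106, 128 and 278 in +Ku70, a log2 difference of 0.13. Without the mixed A1 replicate 2 (411) the difference in A was 0.89. By junctions with the library's own start, Lig4-/- replicates 1 and 3 held 86 and 70, and +Ku70 held 106, 127 and 248. For the mixed replicate 2 the own start cannot be told, since its commonest start held 63 junctions and the next 61. Of those 63, 1.59% had at least 2 bp of microhomology, against 57.0% and 72.9% of the own-start junctions of replicates 1 and 3. Within runs, the difference in A was -0.69 for replicates 1 and 2 and 1.76 for replicate 3. In lineage C the add-back libraries held more, 2204, 3167 and 1320 against 138, 385 and 150, a log2 difference of 3.39. Over both lineages the difference had an exact permutation p = 0.045 and an adjusted p = 0.084; without A1 replicate 2 it was 2.14 (exact permutation p = 0.01). Short prey deletions, compared after the values were seen, were higher with +Ku70 by 1.17 log2 units in A, where the groups overlapped, and 4.32 in C. Their mean difference was 2.74 (exact permutation p = 0.015, adjusted p = 0.0242). With the replicate number as a block, exact sign flips gave p = 0.0625. In C the Lig4-/- libraries came from 3 other sequencing runs, 1 each, so in that lineage genotype cannot be told apart from run.

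The structure of the remaining joins differed from that of Lig4-/- in direct joins, joins with 1 bp of overlap and insertions. Direct joins made up 14.0%, 11.9% and 8.54% of Lig4-/- junctions in A1 and 13.8%, 10.6% and 5.33% in C, below every add-back library of the lineage; the difference, added after the values were seen, was 10.1 points in A and 21.4 in C (exact permutation p = 0.005, adjusted p = 0.00875). Joins with 1 bp of overlap, also added later, made up 16.3%, 7.3% and 6.1% of Lig4-/- junctions in A1 and 10.9%, 11.7% and 7.33% in C. They were higher with +Ku70 by 14.3 points in A and 16.4 in C, without overlap (exact permutation p = 0.005, adjusted p = 0.00875). Insertions made up 12.8%, 56.9% and 14.6% in A1 and 28.3%, 19.2% and 18.7% in C, and were lower with +Ku70 by 17.6 and 16.6 points (exact permutation p = 0.01, adjusted p = 0.0233). The groups overlapped in A, where the 56.9% belonged to the mixed A1 replicate 2 library. Without that library the difference was -3.17 points in A and -9.91 over both lineages (exact permutation p = 0.015). Microhomology of at least 2 bp made up 57.0%, 23.8% and 70.7% in A1 and 47.1%, 58.4% and 68.7% in C; the difference of -13.9 points did not pass (exact permutation p = 0.12). Without A1 replicate 2 it was -20.6 points (exact permutation p = 0.005). For at least 4 bp, added later, the difference was -19.2 points and did not pass after adjustment (exact permutation p = 0.05, adjusted p = 0.0618). Interchromosomal joins made up 37.2%, 9.73% and 74.4% in A1 and 52.2%, 12.2% and 26.7% in C (difference -15.9 points, exact permutation p = 0.2; -23.5 points and p = 0.03 without A1 replicate 2). The prey distance did not differ detectably (exact permutation p = 0.25). Igk joins numbered 4 in all 3 Lig4-/- A1 libraries and 2 in C, against 21 and 88 with +Ku70.

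The drop in total junctions was larger in lineage A (-5.88) than in lineage C (-4.36) by 1.52 log2 units. Permuting the same-numbered differences between lineages gave an exact p = 0.1, the smallest that 20 relabellings allow; this test pairs libraries by a number to which the labels give no meaning. For short prey deletions A minus C was -1.95 log2 units (-6.36 against -4.41, exact permutation p = 0.1), and for other chromosomes -0.38 (-4.1 against -3.72, p = 0.3). The lineages were sequenced in different runs and normalised to different read numbers, so these cannot be told apart from the clone.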

How the data were processed

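Junctions at a Cas9 break in c-Myc were read in 12 libraries, with 6 Lig4-/- and 3 WT clone A libraries for reference. The authors deposited 1 list per library with 1 row per junction read, made with JoinT-seq per the labels; the submitters' processing notes name Bowtie2 and mm10, and versions are not given in the sources used here. The deposited values are positions and read coordinates, not counts; rows were counted here. Each lineage's libraries were normalised by the authors to 1 number of raw reads, per the labels. PCR reads carry no molecular identifiers here, so intervals and the floor of 3 junctions cover counting error only. That floor was 0.0067% to 2.83% of a library in the 12 libraries and 0.73% to 3.66% in the Lig4-/- libraries.

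Overlap was the number of read bases aligned to both bait and prey. Abundance was log2 of junctions plus 0.5, per 100000 raw reads. Prey distance and bait loss were log10 of 1 plus the median. Igk was the extent of its RefSeq segments. Tests were exact two-sided permutations within lineage, averaged over the lineages (400 relabellings), with Benjamini-Hochberg adjustment over 28 comparisons and separately over 21 added later. The class assignment and test were checked on simulated data. Named joins were the 5 with the highest mean share in each group. Named windows were the 5 of 10 kb with the most distinct prey on chromosomes other than that of the break. The members, lists and tests were chosen with earlier results of these data known. Python 3.11.15, numpy 2.4.6, pandas 2.3.3 and scipy 1.17.1 were used.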

Additional observations from a re-analysis of the deposited data

How the results depend on the processing

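Sides of the threshold here refer to unadjusted p. Leaving out each replicate number in turn turned no difference that had passed, but 2 against 2 libraries per lineage cannot reach the threshold of an exact test. Total junctions then changed by -5.32 to -5.01. Against Lig4-/-, the difference in the share with at least 2 bp of microhomology then ran from -17.5 to -8.15 points and in the interchromosomal share from -24.7 to -11.2. The labels give the replicate numbers no meaning, so the main tests did not take them as pairs. Same-numbered deviations over 8 classes nevertheless correlated at 0.21, 0.68 and 0.71 in A and -0.25, 0.63 and 0.87 in C. In lineage A the number also follows the sequencing run, which the main tests did not take as a block. With the replicate number as a block (exact sign flips of 6 pairs, smallest p = 0.0312), the share with at least 2 bp (6.62 points) had p = 0.0625 and the total against Lig4-/- (1.76) p = 0.0938; the other 26 of the 28 planned comparisons kept their side of 0.05. Of the 21 added comparisons 4 lost theirs, among them interchromosomal overlaps of 8 bp or more (-0.87, exact p = 0.0625). Counting each distinct junction once, where the controls are far deeper, turned the share with insertions (-5.77 points), the interchromosomal share (-3.4), prey distance (-0.18 on the log10 scale), bait loss (-0.036) and the ratio of other chromosomes to short deletions (-0.30, log2). It gave microhomology differences of 13.7 points within short and 23.5 within long deletions, both then passing and the latter turned, and against Lig4-/- -20.0 points for microhomology and 0.24 for prey distance, both then passing. With distinct junctions counted at equal depth (106 per library in A, 1320 in C; chosen after seeing the data), the 10 shares and distances recomputed lay on the same side of 0.05 as before, among them 4.15 points for insertions and 17.1 for other chromosomes. On the chromosome of the break alone, microhomology differed by 2.39 points (at least 2 bp) and 2.38 (at least 4 bp), no longer passing; without interchromosomal overlaps of 8 bp or more the former was 4.48. Reads with a library's own start alone (chosen after seeing the data) left inverted joins at -1.41, not passing, and their share at 0.81 points, then passing at 0.05. Without the mixed Lig4-/- A1 replicate 2 library (also chosen later), microhomology differed from Lig4-/- by -20.6 points and the interchromosomal share by -23.5, both then passing. The 106 to 278 junctions of the A add-back libraries limit every share there.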
